A study of Mus musculus with 31 samples.

Results

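Plasmacytoid dendritic cell genes were followed by the gene symbol: 10 members, namely Siglech, Ccr9, Tcf4, Ly6d, Cox6a2, Klk1, Pacsin1, Runx2, Spib and Tlr7, were taken from the 38406 symbols counted in each of 31 bulk RNA-seq libraries. The libraries hold RNA of leukocytes sorted by the surface protein CD45.2 from tumours of female wild-type C57BL/6 mice. Each tumour had grown in the mammary fat pad from AT3-OVA cells, a triple negative mammary line of the same strain that carries ovalbumin, and all groups share this host, line and site. There were 6 libraries taken at day 5 after 3 local fractions of 4 Gy (3x4Gy), with 4 libraries of mice anaesthetised 3 times without radiation (3x0Gy). A further 6 libraries were taken at day 5 after 1 local dose of 20 Gy (1x20Gy), with 4 libraries of mice anaesthetised without radiation (1x0Gy). The later harvest, at day 13, gave 7 libraries of 1x20Gy tumours and 4 of 1x0Gy tumours. Sample codes differ between the days, so day and experiment cannot be told apart and levels were not compared across days. No label says that tumours were pooled or that mice were paired, and the labels do not give an age for any group. The p-values of group differences below set each difference against the spread between these libraries.

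Plasmacytoid dendritic cells are leukocytes that carry endosomal Toll-like receptors for nucleic acids and can release large amounts of type I interferon. The E protein Tcf4 sets their identity, with the ETS factor Spib and the RUNX factor Runx2 acting in their development and release from bone marrow in mice. In mice, Siglech and Ccr9 are surface receptors by which these cells are recognised. In tumours they are known as a rare population that can either promote or restrain immunity.

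Every member had counts in all 31 libraries and passed the low-count filter on both days. Siglech and Ccr9, surface markers of the cells, were thus detected throughout, with at least 3 counts of Siglech and 11 counts of Ccr9 in any library. Several members are also used by other cells, for example Runx2 by T cells, Tcf4 and Tlr7 by other myeloid cells, Ly6d by epithelium, and Cox6a2 by muscle. These examples are not a full list, and the remaining members, Ccr9 among them, are not shown here to be particular to plasmacytoid dendritic cells. In bulk RNA, fewer cells of a type and less RNA per cell cannot be told apart.

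On GRCm38 (GENCODE M21), Siglech (ENSMUSG00000051504.18) lies on chromosome 7 from 55768178 to 55778925 on the plus strand. The chemokine receptor gene Ccr9 (ENSMUSG00000029530.16) lies on chromosome 9 from 123678439 to 123784330 on the plus strand. Klk1 (ENSMUSG00000063903.5), a tissue kallikrein, lies on chromosome 7 from 44225360 to 44229618 on the plus strand, and Spib (ENSMUSG00000008193.13) lies close to it from 44525993 to 44532071 on the minus strand. Cox6a2 lies on chromosome 7 from 128205435 to 128206387 (minus), Pacsin1 on chromosome 17 from 27655509 to 27711482 (plus) and Runx2 on chromosome 17 from 44495987 to 44814797 (minus). Ly6d lies on chromosome 15 from 74762056 to 74763620 (minus) and Tlr7 on chromosome X from 167304929 to 167330558 (minus). All 10 members are protein-coding genes. The annotation overlaps Ccr9 with Slc6a20a and Lztfl1 on the opposite strand, Cox6a2 with Itgad, Klk1 with Gm10109 and Runx2 with Supt3 and antisense transcripts. The strand setting of the counting is not given in the sources used here, so reads of these pairs may be mixed. Klk1 also belongs to a family of near-identical kallikrein genes, which makes its counts uncertain.

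The promoters of the 4 members with the widest spread between libraries at day 5, Siglech, Ccr9, Klk1 and Spib, are shown to let their sequences be set side by side. Each runs from 250 bases before to 50 bases after the start in RefSeq (GRCm38.p6), 5′ to 3′ on the gene's own strand: Siglech chr7:55767934-55768233 (plus strand), Ccr9 chr9:123766961-123767260 (plus strand), Klk1 chr7:44225110-44225409 (plus strand) and Spib chr7:44532022-44532321 (minus strand). Capitals mark matches on either strand to the E-box CANNTG, bound by E proteins such as Tcf4, to GAGGAA, an ETS motif, and to TGTGGT, a RUNX motif.
Siglech: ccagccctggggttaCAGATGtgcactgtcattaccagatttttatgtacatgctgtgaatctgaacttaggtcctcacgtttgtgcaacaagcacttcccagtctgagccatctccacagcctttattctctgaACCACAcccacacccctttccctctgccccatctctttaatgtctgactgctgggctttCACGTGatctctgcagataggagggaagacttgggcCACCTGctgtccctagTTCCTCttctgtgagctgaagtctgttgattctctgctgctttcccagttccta
Ccr9: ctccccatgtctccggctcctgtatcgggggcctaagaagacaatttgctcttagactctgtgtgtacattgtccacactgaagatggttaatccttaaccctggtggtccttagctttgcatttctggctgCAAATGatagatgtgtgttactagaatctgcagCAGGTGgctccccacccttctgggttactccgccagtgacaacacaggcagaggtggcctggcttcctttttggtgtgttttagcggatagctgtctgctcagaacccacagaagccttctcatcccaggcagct
Klk1: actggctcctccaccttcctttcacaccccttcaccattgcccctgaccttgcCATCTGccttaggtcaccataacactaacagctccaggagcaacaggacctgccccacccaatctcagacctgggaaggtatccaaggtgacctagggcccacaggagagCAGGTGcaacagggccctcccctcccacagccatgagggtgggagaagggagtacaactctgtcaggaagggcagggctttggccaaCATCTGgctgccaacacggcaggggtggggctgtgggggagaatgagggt
Spib: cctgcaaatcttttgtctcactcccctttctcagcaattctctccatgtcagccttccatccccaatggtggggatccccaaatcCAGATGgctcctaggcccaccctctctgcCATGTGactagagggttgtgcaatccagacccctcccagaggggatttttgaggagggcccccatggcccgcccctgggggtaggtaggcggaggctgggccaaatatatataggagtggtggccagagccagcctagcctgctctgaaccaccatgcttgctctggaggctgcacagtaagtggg
Siglech and Klk1 each hold 3 E-boxes, and Ccr9 and Spib 2 each. Siglech also holds 1 ETS and 1 RUNX match, and the other printed promoters hold none of either. An E-box is common: 72.3% of the 32851 promoters of this length in the table hold at least 1, against 28.3% for the ETS motif and 16.8% for the RUNX motif. The promoter of Runx2 in the same table holds 2 E-boxes and 3 RUNX matches, and that of Pacsin1 holds 1 RUNX match and no other. These matches describe letters in a window and do not show binding.

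Levels are given as CPM, read counts scaled to a common library size, with the trimmed mean of M values (TMM) as scaling within each day. Per kilobase of exon, the mean level of Ly6d was the highest of the members in each of the 6 groups, from 39.9 CPM per kilobase after 1x20Gy at day 5 to 158.5 after 3x0Gy. Cox6a2 was next in 5 groups, at 7.71 to 14.2 CPM per kilobase over all 6, and Ccr9 (1.28 to 4.24) and Pacsin1 (1.51 to 3.34) were among the 4 lowest in every group. The order in between differed by group: Siglech was at 9.1 CPM per kilobase after 1x20Gy at day 13 and 3.33 after 1x0Gy, and Tlr7 at 3.22 after 1x20Gy and 5.13 after 1x0Gy. The length is that of all annotated exons of a gene joined, 27382 bases for Tcf4, 10260 for Ccr9, 3383 for Siglech and 744 for Ly6d. The order per kilobase thus depends on the annotation. Before division by length and over all libraries, the mean was 172.5 CPM for Tcf4, the highest, and 7.44 CPM for Cox6a2, the lowest, with Ccr9 at 24.7 and Siglech at 19.8 CPM.

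At day 13 after 1x20Gy, 5 of the 10 members were higher than after 1x0Gy and none was called lower. Siglech, Ccr9 and Spib were 2.77, 2.35 and 2.8 times their mock level, and Runx2 and Pacsin1 1.69 and 1.88 times. A gene was called when its Benjamini-Hochberg adjusted p in edgeR's quasi-likelihood test was below 0.05. Of all 11071 genes tested in this comparison, 4.22% were called higher and 3.83% lower. The members' median log2 fold change was 0.76, against 0.01 over all genes tested. The members were chosen with earlier results of these data known, so these shares describe them and are no independent test.

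Siglech, which encodes the endocytic receptor Siglec-H, ranged from 21.6 to 44.2 CPM (median 29.8) in the 7 libraries after 1x20Gy at day 13, against 12.6, 16.2, 5.02 and 11.3 CPM after 1x0Gy. Every irradiated library lay above every mock library. The means were 30.8 ± 7.13 CPM after 1x20Gy (SD, n = 7) and 11.3 ± 4.65 CPM after 1x0Gy (n = 4), a log2 fold change of 1.47 (SE 0.26, 95% interval 0.92 to 2.02, edgeR adjusted p = 0.0031). Ccr9, the receptor for the chemokine Ccl25, ranged from 33.3 to 53.6 CPM (median 46.7) after 1x20Gy, against 21.1, 25.6, 6.69 and 21.2 CPM after 1x0Gy. Its groups did not overlap either, and its log2 fold change was 1.23 (SE 0.27, edgeR adjusted p = 0.01).

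Spib, the ETS factor, ranged from 17.5 to 35.3 CPM (median 26.1) after 1x20Gy at day 13, against 10.7, 10.5, 3.97 and 12 CPM after 1x0Gy. Again no mock library reached the lowest irradiated library, and the log2 fold change was 1.48 (SE 0.26, edgeR adjusted p = 0.0029). Runx2, the RUNX factor, ranged from 40.8 to 69.6 CPM (median 57.4) after 1x20Gy, against 32.2, 35.3, 24.2 and 39.5 CPM after 1x0Gy. The gap between its groups was narrow, and its log2 fold change was 0.76 (SE 0.16, edgeR adjusted p = 0.011). Pacsin1, an adaptor of membrane traffic that takes part in Toll-like receptor responses of these cells, ranged from 12.5 to 23.7 CPM (median 18.4) after 1x20Gy, against 12, 10.8, 4.81 and 11.8 CPM after 1x0Gy. Its log2 fold change was 0.91 (SE 0.25, edgeR adjusted p = 0.035).

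Of the 10 members, the 5 called had groups that did not overlap, and the groups of the other 5 overlapped. Among all genes tested, called or not, 3.31% had no overlap in the higher direction, 3.97% in the lower and 7.28% in either. Calls and overlap rest on the same values, so the lack of overlap adds no separate support. The lowest value of Siglech, Ccr9, Spib, Runx2 and Pacsin1 among the mocks came from the same library, 1x0Gy replicate 3. Without that library only Siglech, Ccr9 and Spib were called, with Runx2 at a log2 fold change of 0.63 (edgeR adjusted p = 0.056) and Pacsin1 at 0.67 (edgeR adjusted p = 0.12). Pacsin1 was the least settled call: it was made in 4 of the 11 fits that leave out 1 library. Without 1x20Gy replicate 5, by contrast, 8 members were called, adding Cox6a2 as higher and Tcf4 and Tlr7 as lower. Scaling by library size alone moved the median of all genes to -0.23 and left 222 of 1533 called genes higher, where TMM left 467 of 891. Siglech, Ccr9, Spib and Runx2 kept their calls under it, Pacsin1 (0.69, edgeR adjusted p = 0.065) did not, and Tcf4 (-0.63) and Tlr7 (-0.92) were called lower.

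The other 5 members did not pass at day 13. Klk1 ranged from 7.15 to 22.8 CPM (median 11.1) after 1x20Gy, against 4.6, 8.63, 3.55 and 12 CPM after 1x0Gy, with overlap (log2 fold change 0.77, SE 0.35, edgeR adjusted p = 0.2). Cox6a2, a subunit isoform of cytochrome c oxidase, ranged from 4.9 to 13.9 CPM (median 9.2) after 1x20Gy, against 3.68, 5.93, 6.06 and 7.85 CPM after 1x0Gy (0.71, SE 0.27, edgeR adjusted p = 0.12). Both point upward with intervals of 0.03 to 1.52 and 0.13 to 1.28 before any adjustment. Ly6d, a surface protein anchored by lipid, ranged from 48.6 to 122.6 CPM (median 87.3) after 1x20Gy, against 62.2, 57.7, 81.9 and 69.5 CPM after 1x0Gy (0.33, SE 0.22, edgeR adjusted p = 0.42).

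Tcf4 and Tlr7 had negative estimates at day 13. Tcf4 ranged from 115.7 to 178 CPM (median 136.7) after 1x20Gy, against 200.1, 187.4, 191.3 and 166.3 CPM after 1x0Gy (log2 fold change -0.4, SE 0.12, edgeR adjusted p = 0.061). Its adjusted p moved below the threshold with DESeq2 (0.028), with upper quartile scaling (0.032) and with the share of reads outside genes as a covariate (-0.58, edgeR adjusted p = 0.022). Tlr7, the endosomal receptor for single-stranded RNA, ranged from 7.23 to 20.4 CPM (mean 13.2 ± 5.28, SD, n = 7) after 1x20Gy, against 14.7, 24, 25.5 and 19.6 CPM after 1x0Gy (-0.68, SE 0.26, edgeR adjusted p = 0.12). In both genes the highest irradiated libraries overlapped the mocks.

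**Figure D1:**
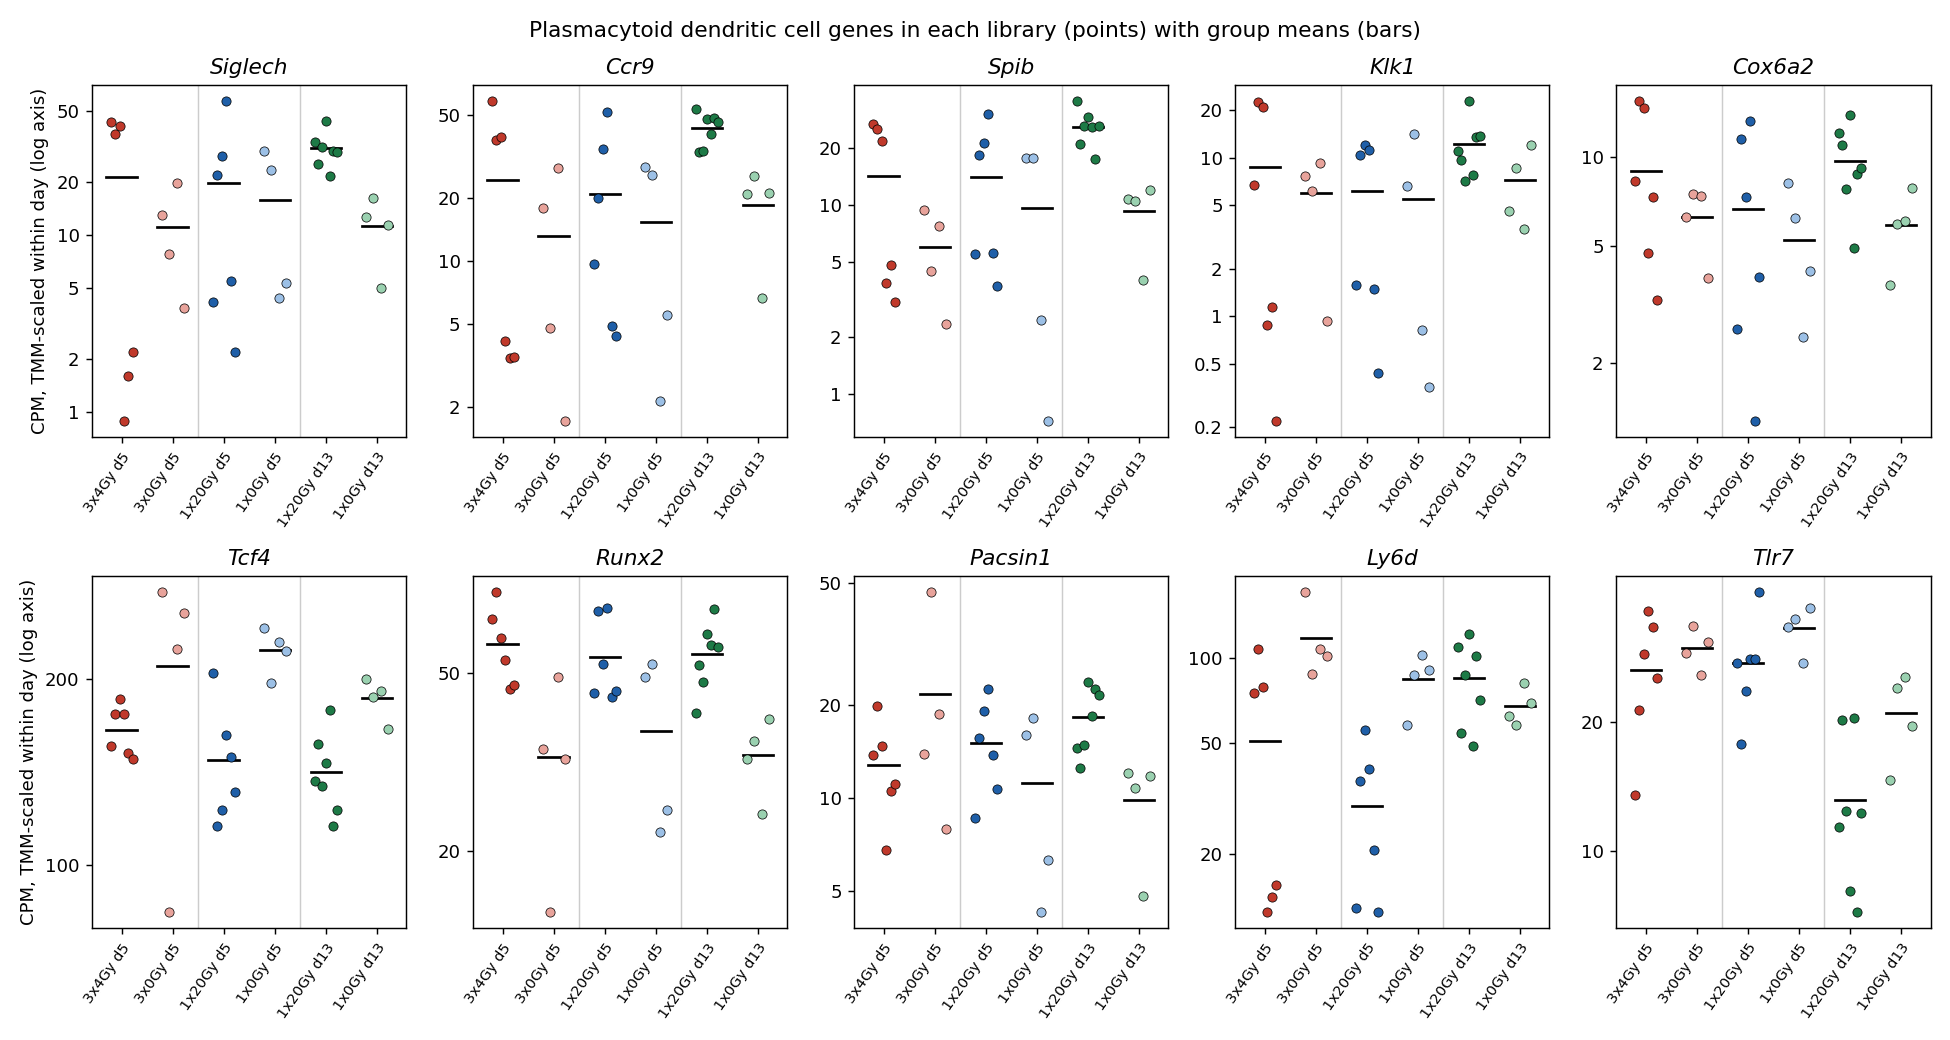
CPM of the 10 members on log axes, 1 point a library and a bar for each group mean, with each irradiated group left of its mock and grey lines between the pairs. At day 13 the 7 libraries after 1x20Gy lie above all 4 after 1x0Gy for Siglech, Ccr9, Spib, Runx2 and Pacsin1, while at day 5 Siglech in the 6 libraries after 3x4Gy lies either between 37.1 and 43.6 CPM or between 0.886 and 2.18 CPM.

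**Figure D2:**
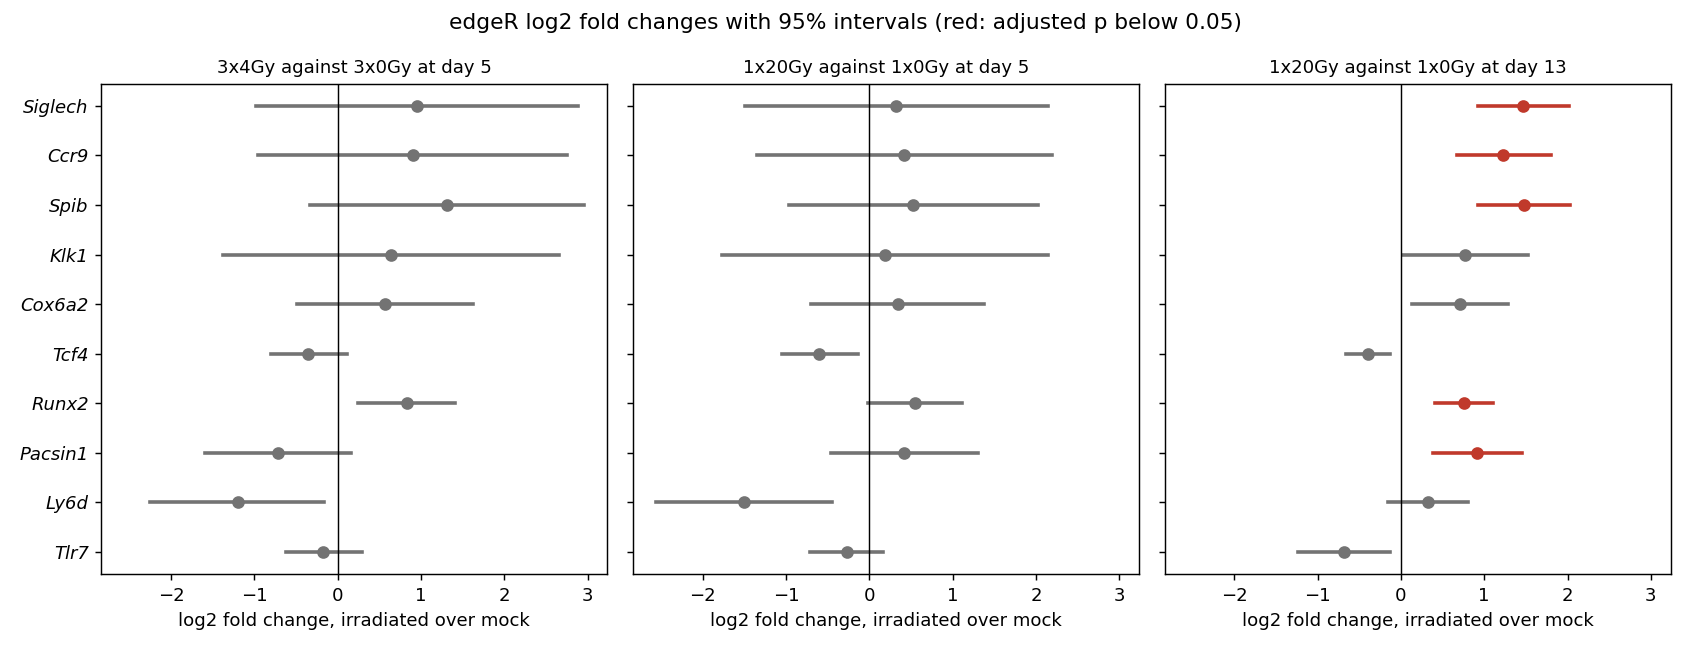
Log2 fold changes of the 10 members, irradiated over mock, with 95% intervals from edgeR, in red where the adjusted p was below 0.05. At day 13 5 members are red, and at day 5 none is; the day 5 interval of Siglech runs from -0.98 to 2.88 after 3x4Gy.

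At day 5, none of the 10 members was called in either regimen. After 3x4Gy against 3x0Gy this was 0 of 10, where 5.2% of the 12021 genes tested were called higher and 7.09% lower. After 1x20Gy against 1x0Gy it was 0 of 10, where 3.67% were called higher and 4.88% lower. After 3x4Gy the groups overlapped for every member, while they did not for 3.91% of all genes in the higher direction, 5.67% in the lower and 9.58% in either. The members' median log2 fold change was 0.61 after 3x4Gy and 0.33 after 1x20Gy, against 0 and 0.02 over all genes tested. DESeq2 called 1 member after 3x4Gy (Runx2, log2 fold change 0.82, adjusted p = 0.031) and none after 1x20Gy, and limma voom called 2 after 3x4Gy (Runx2 and Ly6d).

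The day 5 estimates of Siglech, Ccr9 and Spib carried wide errors. Siglech stood at 43.6, 37.1 and 41.3 CPM in libraries 1 to 3 after 3x4Gy and at 0.886, 1.6 and 2.18 CPM in libraries 4 to 6, against 12.9, 7.84, 19.7 and 3.88 CPM after 3x0Gy. The irradiated libraries thus lay on both sides of the mocks, and the highest held 49.2 times the lowest. The resulting log2 fold change was 0.95 (SE 0.93, 95% interval -0.98 to 2.88, edgeR adjusted p = 0.52). After 1x20Gy, Siglech stood at 21.8, 27.8 and 57.1 CPM in libraries 2 to 4 and at 4.17, 5.52 and 2.18 CPM in libraries 1, 5 and 6, against 29.6, 23.3, 4.42 and 5.37 CPM after 1x0Gy. The irradiated libraries reached past the mocks at both ends (0.32, SE 0.87, edgeR adjusted p = 0.88), and without library 4, the highest, the log2 fold change turned to -0.34.

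Ccr9 and Spib split in the same libraries. Ccr9 stood at 58.7, 38.2 and 39.4 CPM in libraries 1 to 3 after 3x4Gy and at 4.13, 3.44 and 3.49 CPM in libraries 4 to 6, against 18.1, 4.77, 28.1 and 1.71 CPM after 3x0Gy (log2 fold change 0.9, SE 0.89). Spib stood at 26.8, 25.1 and 21.6 CPM in libraries 1 to 3 and at 3.84, 4.81 and 3.05 CPM in libraries 4 to 6, against 9.41, 4.43, 7.71 and 2.33 CPM after 3x0Gy (1.31, SE 0.79). Klk1 spanned the widest ratio, with its highest 3x4Gy library at 22.6 CPM and its lowest at 0.218 CPM, 143 counts and 1 count, against 0.93 to 9.25 CPM after 3x0Gy (0.64, SE 0.97). After 1x20Gy the log2 fold changes of Ccr9, Spib, Klk1 and Cox6a2 lay between 0.19 and 0.53, each with a 95% interval that includes 0.

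Runx2, Ly6d and Tcf4 had adjusted p-values below 0.1 in at least 1 regimen at day 5. Runx2 ranged from 46.1 to 76.2 CPM (median 56.9) after 3x4Gy, against 33.8, 14.6, 49.1 and 32.1 CPM after 3x0Gy (log2 fold change 0.83, SE 0.28, edgeR adjusted p = 0.054). Only the mock library at 49.1 CPM lay within the irradiated range. After 1x20Gy the Runx2 estimate was 0.55 (SE 0.27, edgeR adjusted p = 0.23). Ly6d ranged from 12.4 to 108 CPM (median 45.5) after 3x4Gy, against 173.3, 88.2, 108.1 and 102.2 CPM after 3x0Gy (-1.2, SE 0.5, edgeR adjusted p = 0.12). After 1x20Gy it ranged from 12.4 to 55.6 CPM (median 28.5), against 57.9, 87.1, 103.3 and 90.8 CPM after 1x0Gy, with no overlap (-1.5, SE 0.51, edgeR adjusted p = 0.069). It was the only member so separated at day 5, and 6.07% of the genes tested were so in the lower direction, 5.44% in the higher and 11.5% in either. Epithelium also uses Ly6d. Epithelial markers had 4 of 8 called lower after 1x20Gy (median -1.6) and 2 of 8 after 3x4Gy (median -0.93), and none higher. Among all genes tested, 4.88% and 7.09% were called lower. The part of epithelium in the Ly6d estimates was not tested.

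Tcf4 was at 147.7 ± 32.9 CPM after 1x20Gy at day 5 (SD, n = 6) and 222.9 ± 19 CPM after 1x0Gy (n = 4), a log2 fold change of -0.6 (SE 0.22, edgeR adjusted p = 0.095). A fit of these 2 groups alone gave an adjusted p of 0.017 in edgeR, and called Ly6d as well. After 3x4Gy Tcf4 was at 165.5 ± 15.4 CPM (n = 6) and after 3x0Gy at 210.5 ± 87.3 CPM (n = 4), where library 2 of 3x0Gy, at 83.8 CPM, stood far below the other mocks (-0.35, SE 0.22). Without that library the value was -0.61 (edgeR adjusted p = 0.0085). The same library held the highest Pacsin1, 46.7 CPM, and the lowest Runx2, 14.6 CPM, of its group, and 5.65% of its reads fell outside genes, against 16.46% to 21.53% in the other 3x0Gy libraries.

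The 95% intervals of the remaining day 5 estimates included 0. Pacsin1 was at 12.8 ± 4.44 CPM after 3x4Gy (SD, n = 6) and 21.8 ± 17.2 CPM after 3x0Gy (n = 4), with a log2 fold change of -0.71 (SE 0.42), and after 1x20Gy the log2 fold change was 0.42 (SE 0.43). Tlr7 was at 26.4 ± 8.29 CPM after 3x4Gy and 29.7 ± 3.23 CPM after 3x0Gy, and at 27.5 ± 7.36 CPM after 1x20Gy and 33.1 ± 4 CPM after 1x0Gy, with estimates of -0.17 (SE 0.22) and -0.27 (SE 0.21). Cox6a2 was at 8.96 ± 5.07 CPM after 3x4Gy and 6.25 ± 1.68 CPM after 3x0Gy (0.57, SE 0.51).

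Whether the responses differ was tested as a contrast of its own. Between the day 5 responses to 3x4Gy and to 1x20Gy, 0 of 10 members differed by the test, and edgeR called 0.0% of all genes (714 at an unadjusted p below 0.05, 1 by DESeq2 and 0 by limma voom). The 95% interval for Siglech ran from -1.99 to 3.25 and that for Tcf4 from -0.4 to 0.89. The 1x20Gy response at day 13 minus that at day 5 gave 0 of 10 members, where 0.207% of 12061 genes were called higher and 0.216% lower. Ly6d had the lowest p of the members, a difference of 1.86 (SE 0.64, edgeR adjusted p = 0.18). For Siglech the difference was 1.18 (SE 1.06, interval -0.98 to 3.33), so the calls at day 13 are not shown to be particular to that day. Between the mocks, 3x0Gy and 1x0Gy at day 5, 0 of 10 members were called, and edgeR called 0.0% of all genes (667 at an unadjusted p below 0.05, 2 by DESeq2 and 0 by limma voom).

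For 4 members the spread between libraries of 1 group was among the largest of all genes at day 5. The biological coefficient of variation estimated by edgeR was 1.05 for Klk1, 0.948 for Siglech, 0.9 for Ccr9 and 0.772 for Spib, against a median of 0.211 over all genes tested. Between 99.4% and 99.9% of the genes tested had a lower value than these 4 members. Ly6d (0.55), Cox6a2 (0.518) and Pacsin1 (0.445) followed, and Runx2 (0.288), Tcf4 (0.242) and Tlr7 (0.226) lay closer to the median. At day 13 the coefficient was 0.252 for Siglech, 0.272 for Ccr9, 0.246 for Spib and 0.354 for Klk1, against a median of 0.19. Day and experiment cannot be told apart in this contrast of spreads.

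The day 5 spread followed the same libraries across members. In 3 of the 4 day 5 groups, Siglech left a gap of at least 1.5 log2 CPM between high and low libraries: libraries 1 to 3 after 3x4Gy (gap 3.87), libraries 2 to 4 after 1x20Gy (gap 1.91) and libraries 1 and 2 after 1x0Gy (gap 2.03) were the high ones. After 3x0Gy the widest gap was 0.9. Ccr9, Spib and Klk1 stood above their group mean in all 8 of those high libraries and below it in all 8 low ones, as did Cox6a2 and Pacsin1. Ly6d did so after 3x4Gy and 1x20Gy, but not after 1x0Gy, where its low libraries stood 0.13 to 0.31 log2 CPM above the mean. Runx2 stood below its group mean in all 8 low libraries. In the high ones Runx2 stood at 0.08 to 0.43 after 3x4Gy, -0.03 to 0.38 after 1x20Gy and 0.5 to 0.6 after 1x0Gy. Tcf4 stayed within 0.5 log2 CPM of its group mean in all 16 libraries, and Tlr7 was on either side of it.

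**Figure D3:**
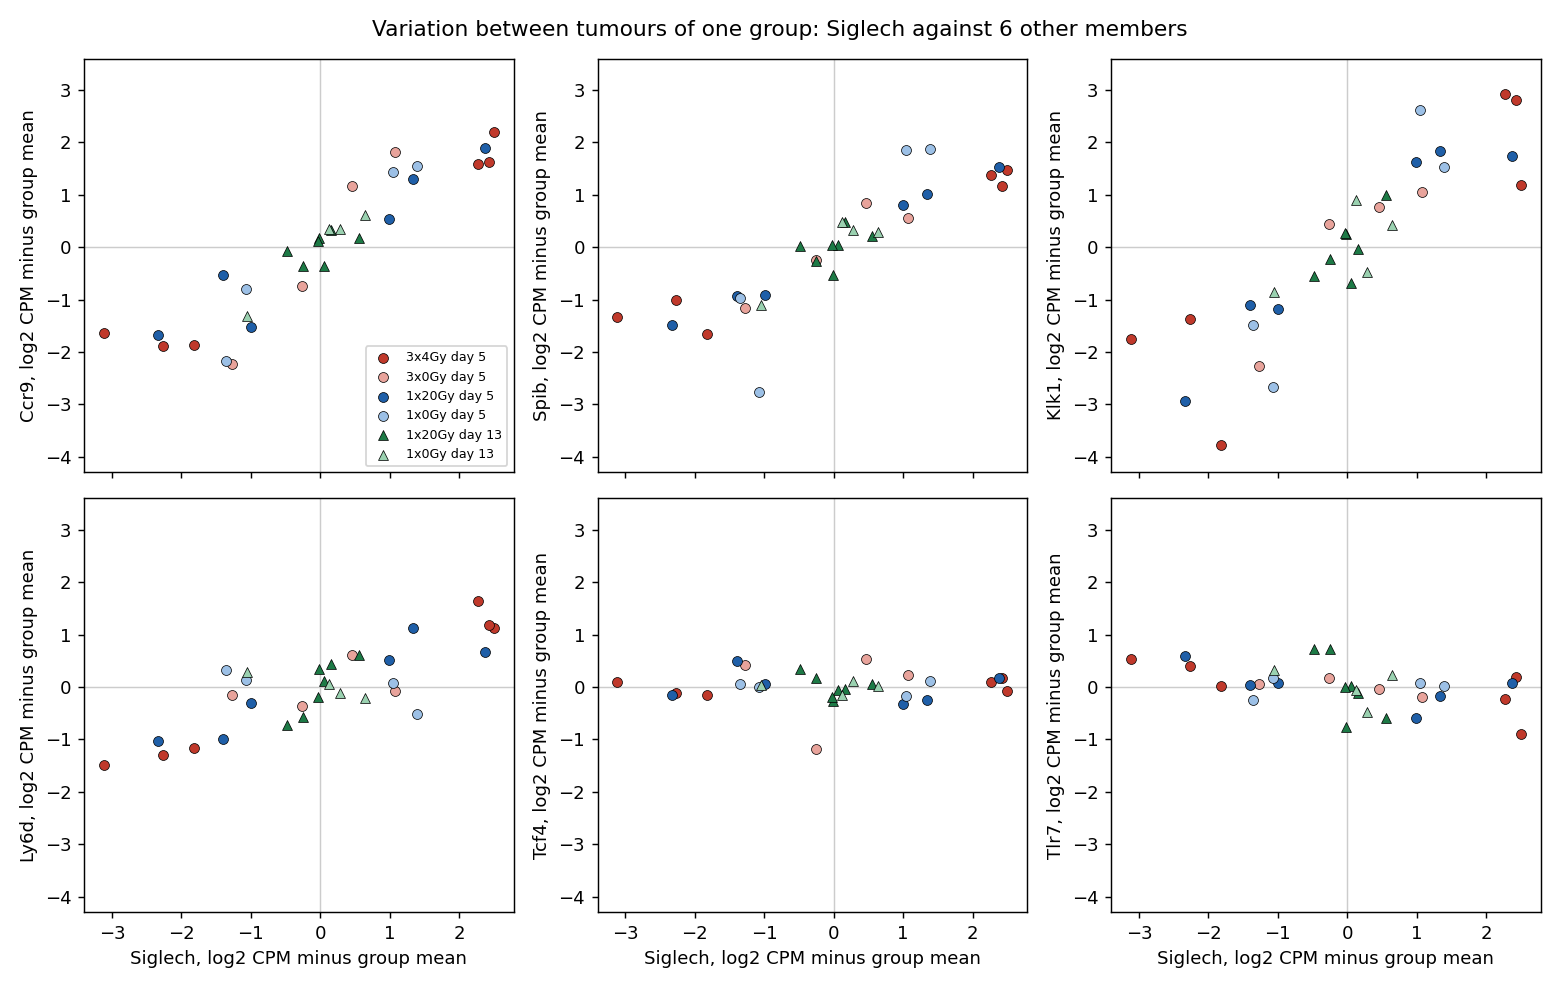
Log2 CPM of 6 members against that of Siglech, each minus its group mean, 1 point a library, with circles for day 5 and triangles for day 13. Ccr9, Spib and Klk1 lie high in the day 5 libraries where Siglech is high and low where it is low, while Tcf4 and Tlr7 do not follow that split.

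Because libraries fell into such sets, no correlation over all day 5 libraries is given. Inside the 8 high libraries, with the means of each group's set removed, Siglech had a Pearson r of 0.87 with Ccr9 (Spearman rho 0.76, exact permutation p = 0.069) and of 0.89 with Spib (rho 0.76, exact permutation p = 0.069), and of -0.19 with Klk1. Tcf4 stood close to Ccr9 and Spib there, at 0.81 (rho 0.74, exact permutation p = 0.097). The remaining members ran from -0.26 (Ly6d) to 0.41 (Pacsin1). Inside the 8 low libraries the r of Siglech was 0.21 with Ccr9, 0.06 with Spib and 0.17 with Klk1. It was highest with Ly6d (0.72) and Pacsin1 (0.63), lowest with Tlr7 (-0.73) and Cox6a2 (-0.57), and 0.11 with Tcf4. Each of these 18 relations had 72 permutations, so the smallest exact p is 0.014, or 0.25 for a lone relation after adjustment, and such a relation could not pass (lowest adjusted exact p 0.54). At day 13 (n = 11), group means removed, the r of Siglech was 0.86 with Ccr9 (rho 0.8, permutation p = 0.015, adjusted 0.39 over 215 relations), 0.77 with Spib (rho 0.75, permutation p = 0.049, adjusted 0.41) and 0.67 with Klk1 (rho 0.62, permutation p = 0.036, adjusted 0.39). Without the 2 libraries farthest in Siglech these r were 0.69, 0.54 and 0.45. No day 13 relation held after adjustment. Among the 10 pairs of Siglech, Ccr9, Klk1, Spib and Cox6a2, r at day 13 ran from 0.09 to 0.86 (median 0.65).

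Markers of other cell types also differed between these libraries. Averaged over the list, T cell markers stood 0.06 to 0.49 log2 CPM above the group mean in the 3 high libraries after 3x4Gy and at -0.51 to -0.06 in the 3 low ones. After 1x20Gy they stood at 0.24 to 0.67 in the high and -0.78 to -0.18 in the low libraries, and after 1x0Gy at 0.62 to 0.73 and -0.85 to -0.5. NK cell markers stood at 0.07 to 0.63 in the high and -0.55 to -0.17 in the low libraries after 1x20Gy and at 0.63 to 0.76 and -0.78 to -0.61 after 1x0Gy, while after 3x4Gy the sets overlapped. Macrophage markers ran the other way in all 3 groups, at -0.46 to -0.12 in the high libraries after 3x4Gy and 0.25 to 0.45 in the low ones, at -0.58 to -0.18 and 0.27 to 0.38 after 1x20Gy, and at -0.3 to -0.15 and 0.09 to 0.36 after 1x0Gy. Epithelial markers stood at 0.73 to 1.47 in the high libraries after 3x4Gy and -1.67 to -0.76 in the low ones, beside Ly6d in the same direction, but after 1x20Gy they ran from -0.79 to 1.43 and from -0.67 to 0.26. B cell markers were on either side of the mean in both sets after 3x4Gy and 1x20Gy. Further plasmacytoid dendritic cell markers, listed below, followed the split in all 3 groups. They stood at 0.13 to 0.57 in the high and -0.44 to -0.33 in the low libraries after 3x4Gy. After 1x20Gy the ranges were 0.16 to 0.46 and -0.38 to -0.18, and after 1x0Gy 0.39 to 0.52 and -0.47 to -0.43. Type 2 conventional and mature dendritic cell markers were also higher in the high set after 1x20Gy and 1x0Gy, and overlapped after 3x4Gy. The part of these cell types in the members' spread was not tested.

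**Figure D4:**
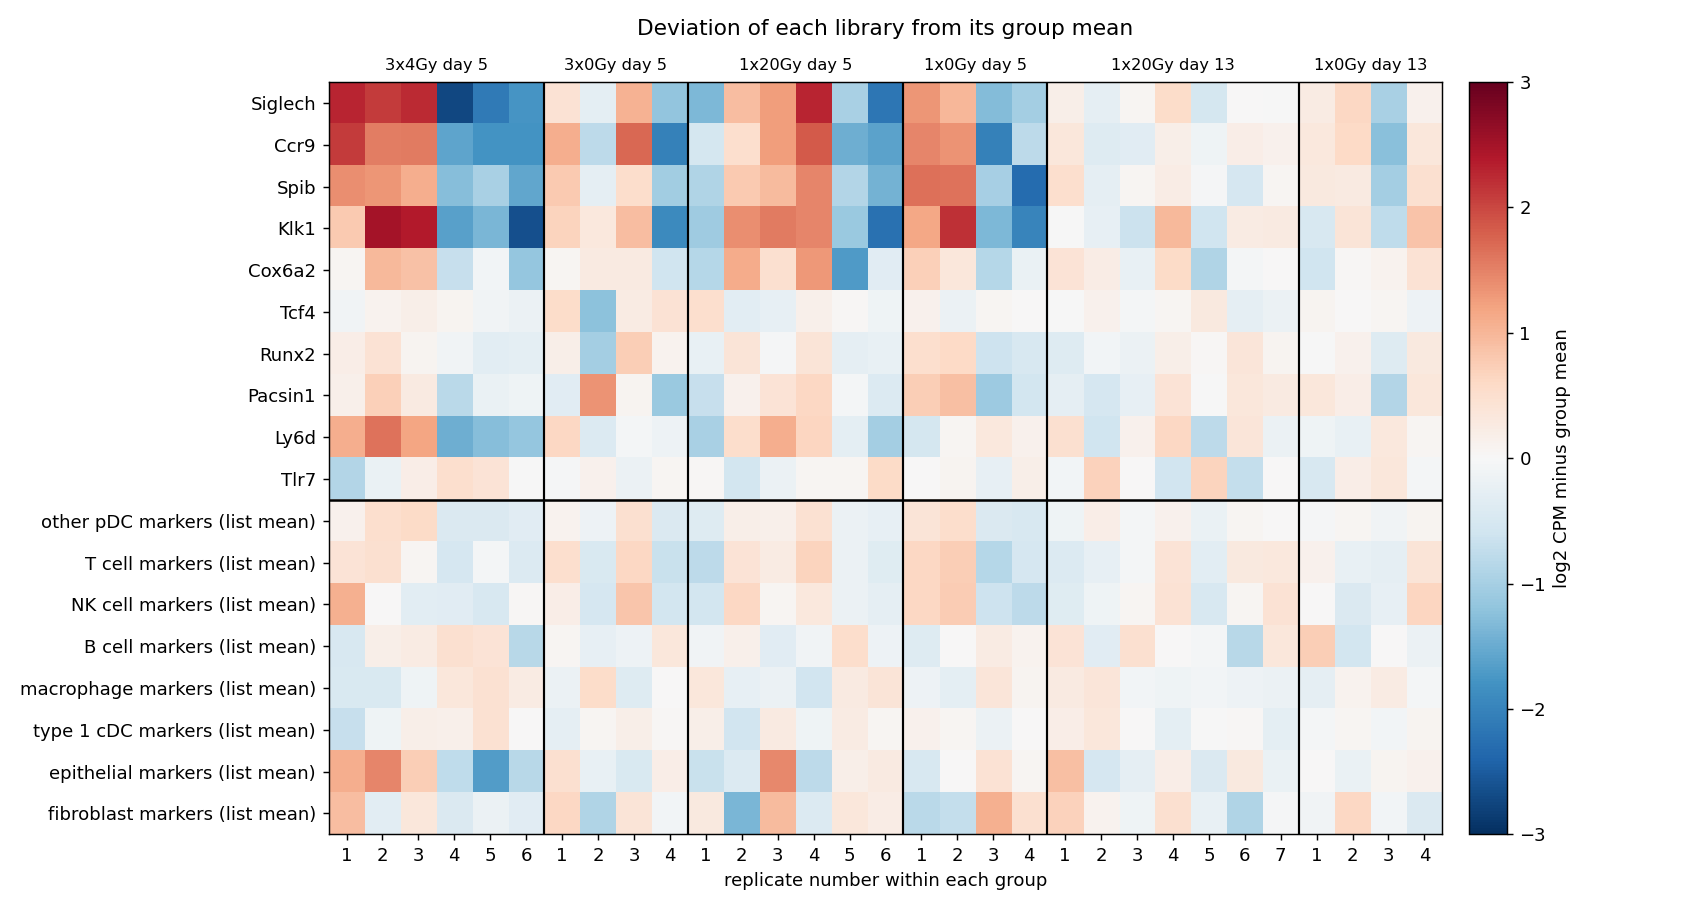
Log2 CPM minus group mean in each of the 31 libraries (columns, by group and replicate) for the 10 members and, below the black line, for the mean of 8 marker lists (pDC, plasmacytoid dendritic cell; cDC, conventional dendritic cell). Red is above and blue below the group mean; Siglech, Ccr9, Spib and Klk1 share red and blue libraries at day 5, and at day 13 these 4 stay between -1.25 and 0.98.

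The genes whose log2 CPM was most like a member's over all 31 libraries, group means removed, were listed as a description among the 12417 genes that averaged 1 CPM or more. Siglech was most like Ccr9 (Pearson r 0.93), Adam11 (0.92), Dntt (0.92), Paqr5 (0.91) and Klk1 (0.9), and Ccr9 most like Siglech, Spib (0.9), Klk1 (0.88), Dntt (0.88) and Rpgrip1 (0.86). Spib was most like Klk1 (0.91), Ccr9, Siglech, Adam11 (0.87) and Dntt (0.87), and Klk1 most like Dntt (0.92), Spib, Siglech, Fam169b (0.88) and Ccr9. Cox6a2 was most like Dntt (0.8), Klk1 (0.8), Fam169b (0.79), 9030025P20Rik (0.79) and Trp53i11 (0.78). Each of these 5 members listed another of them and Dntt, the template-independent DNA polymerase that some plasmacytoid dendritic cells express.

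The other 5 members listed no member among their 5 nearest genes. Runx2 was most like Arap2 (Pearson r 0.89), Cd3e (0.89), Fyn (0.89), Rora (0.87) and Bcl11b (0.86), of which Cd3e and Bcl11b are T cell markers. Pacsin1 was most like P2ry10 (0.83), Tnfrsf9 (0.81), Pglyrp1 (0.81), Sept1 (0.8) and Fmnl1 (0.79). Ly6d was most like Ptprf (0.9), Fam43a (0.88), Rbfox2 (0.88), Ddr1 (0.86) and Wfdc2 (0.85). Tcf4 was most like Arhgap5 (0.89), Nufip2 (0.88), CT030166.1 (0.88), BC005561 (0.88) and Lmbrd2 (0.88), and Tlr7 most like Vps26a (0.82), Tbc1d9 (0.81), Prdm1 (0.79), Capza2 (0.78) and Rab32 (0.77). The points share library depth and composition and include the day 5 libraries that split into high and low sets, on which the likeness may rest, so these values carry no p. Pacsin1 also followed that split, and Runx2 nearly so.

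A list of 20 further plasmacytoid dendritic cell markers, of which 18 were tested, was examined beside the members. Of the 18, 7 rose after 1x20Gy at day 13, none fell and 11 were not called, with a median log2 fold change of 0.64 against 0.01 over all genes tested. Of all genes, 4.22% were called higher and 3.83% lower in that comparison. This list, like those below, was chosen with earlier results of these data known, so the shares beside it are a description and no independent test. Dntt rose by 2.05 (SE 0.4, edgeR adjusted p = 0.0061), Smim5, a small membrane protein, by 1.62 (SE 0.33, edgeR adjusted p = 0.0079) and Kmo, an enzyme of tryptophan breakdown, by 0.81 (SE 0.19, edgeR adjusted p = 0.016). The other 4 were Upb1 (1.24), Mctp2 (1.05), Rpgrip1 (0.97) and Plac8 (0.83), named after their values were seen. Plac8 and Ly6c2 are monocyte markers as well, Cadm1 is one of type 1 conventional dendritic cells, and Lag3 is also expressed by T cells. Rag1 had no count in any library, which allows up to 0.0215 CPM over all libraries.

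**Figure D5:**
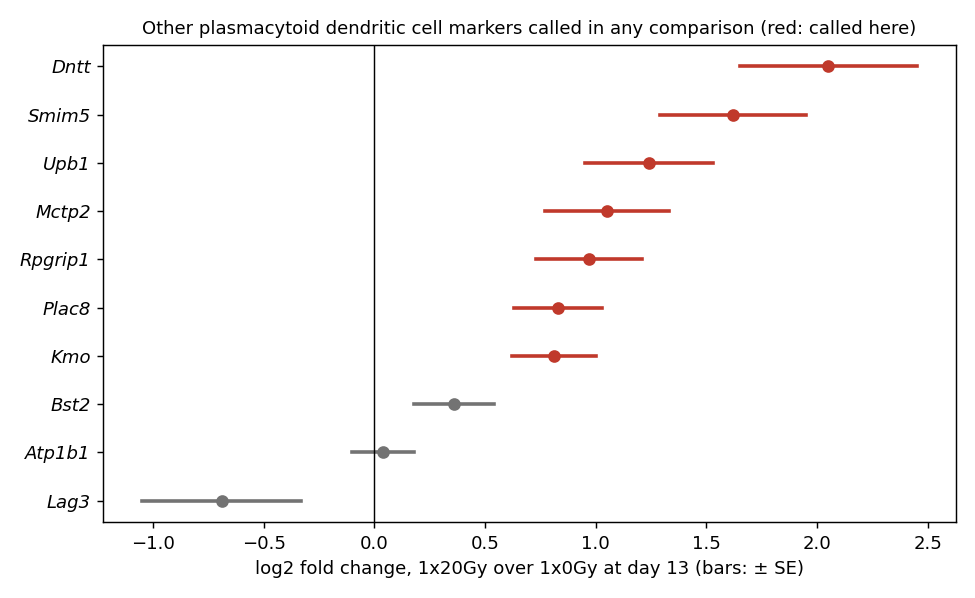
Log2 fold changes, 1x20Gy over 1x0Gy at day 13, of the 10 further markers called in any of the 3 comparisons of irradiated with mock libraries, with bars of ± SE and red where the edgeR adjusted p was below 0.05. The 7 red genes lie between 0.81 and 2.05, and Lag3 is the lowest at -0.69.

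At day 5 the same 18 markers had 1 called higher and 1 lower after 3x4Gy (median 0.44), and 1 higher and 2 lower after 1x20Gy (median 0.25). Among all genes tested, 5.2% were called higher and 7.09% lower after 3x4Gy, and 3.67% and 4.88% after 1x20Gy, so 1 of 18 is near the background. Kmo was the higher gene both times, at 1.68 (SE 0.25, edgeR adjusted p = 0.00012) after 3x4Gy and 1.2 (SE 0.23, edgeR adjusted p = 0.0023) after 1x20Gy. Lag3, an inhibitory receptor, fell by 2.32 (SE 0.41, edgeR adjusted p = 0.0012) after 1x20Gy, and Bst2, the antiviral protein tetherin, fell by 1.01 (SE 0.2, edgeR adjusted p = 0.0027). Atp1b1, a sodium pump subunit, fell by 1.37 (SE 0.42, edgeR adjusted p = 0.036) after 3x4Gy. Bst2 and Atp1b1 were also named after their values were seen.

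Of 16 factors of plasmacytoid dendritic cell development, all tested, 4 rose after 3x4Gy, 4 after 1x20Gy at day 5 and 2 after 1x20Gy at day 13, and none fell (medians 0.43, 0.32 and 0.27). Among all genes tested, 5.2%, 3.67% and 4.22% were called higher and 7.09%, 4.88% and 3.83% lower. The list was not sorted by whether a factor promotes or opposes these cells, so its counts give no direction for the cells. Batf3 is also on the list of type 1 conventional dendritic cell markers. Zeb2, a repressor needed for these cells in mice, rose by 1.15 (SE 0.29) after 3x4Gy, and Cbfa2t3, a corepressor, by 0.97 (SE 0.18) after 3x4Gy and 0.54 (SE 0.17) after 1x20Gy at day 5. Irf4 rose by 0.88 (SE 0.23) after 1x20Gy at day 5 and 1.11 (SE 0.24) at day 13, and is a marker of type 2 conventional dendritic cells as well. Mycl1, now named Mycl, rose by 1.11 (SE 0.3) after 1x20Gy at day 5. The Tcf4 paralogs Tcf3 and Tcf12 were not called in any of the 3 comparisons, nor was Bcl11a, the zinc finger factor upstream of Tcf4 in mice (0.51, edgeR adjusted p = 0.094 at day 13).

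Endosomal Toll-like receptor signalling was followed beside Tlr7 by 18 genes. Of the 17 tested, 2 rose after 3x4Gy, Traf3 by 0.54 (SE 0.14) and the kinase Ikbkb by 0.47 (SE 0.13), none after 1x20Gy at day 5, and 1 at day 13, Dock2 by 0.49 (SE 0.14), with no gene falling (medians 0.19, 0.1 and 0). Of all genes, 5.2%, 3.67% and 4.22% were called higher in these comparisons, so 1 or 2 of 17 is near the background. The counts of the lists that follow are to be read against the same shares, with 7.09%, 4.88% and 3.83% called lower. Tlr9, the endosomal receptor for DNA that these cells share with B cells, had 71 counts over all 31 libraries (mean 0.511 CPM) and was not tested.

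None of 20 type I and III interferon genes reached the test. No count of 16 of them was found in any library, which allows up to 0.0215 CPM each over all libraries, and Ifnb1 had 16 counts, Ifnk 7, Ifnz 4 and Ifnl3 3. These limits cover counting error only, and reads shared between near-identical interferon alpha genes may go uncounted. Of 15 genes induced by type I interferon, 1 fell after 3x4Gy (Ifit1, by 0.6, SE 0.19), 1 fell after 1x20Gy at day 5 (Oas2, by 0.54, SE 0.14) and none was called at day 13 (medians 0.05, -0.07 and -0.37).

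Adaptor signalling was followed beside Siglech by 8 genes, which are not particular to Siglec-H. Syk rose by 0.59 (SE 0.15) after 3x4Gy, and Blnk fell by 0.8 (SE 0.25) after 1x20Gy at day 5. The adaptor Hcst rose by 0.94 (SE 0.26) at day 13. The DAP12 gene Tyrobp, the adaptor of Siglec-H itself, was not called, at -0.52 (SE 0.16, edgeR adjusted p = 0.059) at day 13. The medians of the list were -0.25, -0.1 and -0.14.

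Of 11 tested genes among 14 chemokines and receptors of dendritic cell homing, 2 rose after 3x4Gy, 1 after 1x20Gy at day 5 and 1 at day 13, and none fell (medians 0.27, 0.26 and 0.15). Ccr7, the lymph node homing receptor, rose by 0.88 (SE 0.27) after 3x4Gy. Ccr2 rose by 1.12 (SE 0.25) after 3x4Gy and 0.88 (SE 0.24) after 1x20Gy at day 5, and Ccl5 rose by 1.31 (SE 0.28) after 1x20Gy at day 13. Ccl25, the ligand of Ccr9, had 277 counts in all (mean 2.15 CPM) and a day 13 estimate of -0.12 (SE 0.35). Of 20 paralogs of the members, 18 were tested at day 5 and 17 at day 13. At day 5 Siglecg rose by 1.21 (SE 0.28) after 3x4Gy and 1.41 (SE 0.26) after 1x20Gy, and Pacsin3 fell by 1.78 (SE 0.42) and 1.98 (SE 0.44). At day 13 the single paralog called was Pacsin2, which fell by 0.5 (SE 0.12).

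Markers of other cell types also differed at day 13, beside the members' calls. T cell markers had 5 of 11 higher and none lower, among them Cd2 (1.23) and Cd28 (1.13), and their summed level was 801.6 to 1507.2 CPM after 1x20Gy, against 529.4 to 861.7 CPM after 1x0Gy. NK cell markers had 5 of 8 higher, among them Klra8 (2.32) and Ncr1 (2), with sums of 470.7 to 768.3 CPM, against 238.4 to 453.1 CPM after 1x0Gy. Macrophage markers had 4 of 11 lower (Apoe, C1qc, C1qb and Csf1r), with sums of 6610.1 to 9210.0 CPM, against 9216.0 to 12020.5 CPM after 1x0Gy. B cells also use Spib, and their markers had 1 of 2 tested lower (Cd22, which fell by 1.12), with sums of 9.34 to 24.2 CPM, against 21.0 to 35.2 CPM after 1x0Gy. Each of the 12 B cell markers had a count in at least 1 library. Of these, Ms4a1 had 109 and Pax5 20 counts over all 31 libraries, and both were named after their values were seen. Muscle markers, which could carry Cox6a2, summed to 5.63 to 9.54 CPM after 1x20Gy and 4.9 to 7.28 CPM after 1x0Gy. Of the 9 muscle markers, only Cox8b had no count in any library. A single gene known by a clone name held 19.17% to 31.53% of the gene counts after 1x20Gy at day 13, against 2.15% to 15.01% after 1x0Gy. With its counts removed the same 5 members were called. The part of T cell, NK cell, macrophage, B cell and muscle shares in the members' day 13 estimates was not tested.

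For the remaining lists only counts are given, higher and lower, for 3x4Gy, 1x20Gy at day 5 and 1x20Gy at day 13 in turn. Plasma cell genes had 0 and 3 of 6, 0 and 0 of 6, and 0 and 0 of 5. Markers of type 1 conventional dendritic cells had 1, 2 and 1 of 8 higher and none lower, and those of type 2 had 1 of 8, 3 of 8 and 3 of 7 higher and none lower. Mature dendritic cell markers had 4, 2 and 1 of 8 higher and none lower. Monocyte markers had 1 and 1, 1 and 0, and 1 and 0 of 8. Epithelial markers had 0 and 2 of 8, 0 and 4 of 8, and 2 and 1 of 7, and fibroblast markers 0 and 5, 0 and 1, and 0 and 3 of 5. Endothelial markers had 1 of 5, 1 of 5 and 0 of 2 higher and none lower, and muscle markers 0 of 2 at day 5 in either regimen. At day 5, T cell markers had 1 of 11 and 4 of 11 higher, NK cell markers had 1 higher and 1 lower of 8 after 3x4Gy and none after 1x20Gy, and macrophage and B cell markers had none called.

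Library totals ran from 2641229 to 7541144 gene counts, and replicates differed by more than counting error (chi-square per degree of freedom 3.42 to 62.74 for pairs of a group). Reads outside genes were 21.1% to 28.1% after 3x4Gy against 5.7% to 21.5% after 3x0Gy, 17.6% to 28.8% after 1x20Gy at day 5 against 15.9% to 18.4% after 1x0Gy, and 20.1% to 32.0% after 1x20Gy at day 13 against 17.4% to 23.1% after 1x0Gy. With this share as a covariate, Siglech, Ccr9, Spib and Runx2 kept their day 13 calls, Pacsin1 did not (0.9, edgeR adjusted p = 0.07) and Tcf4 was called lower. Members at low level rest on few reads: Klk1 in the low day 5 libraries had as few as 1 and 2 counts, and Siglech after 3x4Gy as few as 3.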

How the data were processed

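The 31 RNA-seq libraries of CD45.2+ tumour leukocytes were grouped by the titles in the labels. Per the submitters' processing notes, the authors used bcl2fastq 2.20.0.422, cutadapt 1.5, HISAT2 2.0.4 and HTSeq 0.9.1 with GRCm38 (mm10). The deposited values are raw read counts per gene symbol, not normalized. The annotation, strand setting and read filter are not given in the sources used here. HTSeq's summary lines (reads outside genes and the like) were left out of library sizes and tests. Library totals ran from 2641229 to 7541144 gene counts, and intervals and floors of counts cover counting error only.

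Counts were tested over all genes with edgeR 4.0.16 (R 4.3.3): TMM, filterByExpr (minimum count 10, minimum total 15), quasi-likelihood, two-sided, Benjamini-Hochberg threshold 0.05. The 20 day 5 libraries shared 1 fit, the 11 day 13 libraries another, and all 31 a fit for the difference between days. SE is the log2 fold change over the root of F, and intervals are 95%. The edgeR fit of each comparison was tested on simulated counts with known changes, and the alternative fits were not. Alternatives were DESeq2 1.42.0, limma 3.58.1 voom, other scalings, no filter, a covariate, a replicate block and leaving out each library. Correlations used log2 CPM (prior count 2) with group means removed and 100000 permutations within groups, or all 72 where sets were split. Markers were summed without weights. Figures used Python 3.11.15 and matplotlib 3.10.9.

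The members and lists were chosen with earlier results of these data known. The text names all members, up to 4 called genes a list by largest fold change, and the 5 genes most like each member. Other genes, such as Tyrobp, Ccl25, Bcl11a, Tcf3, Tcf12, Ms4a1, Pax5, Cox8b, Ikbkb and Dock2, were named after their values were seen. Promoters came from RefSeq (GRCm38.p6), in which 6 of the 10 members were matched and shown or counted. Cox6a2, Ly6d, Tlr7 and Tcf4 are named only.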

Additional observations from a re-analysis of the deposited data

Results flagged for a closer look

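Among the 60 combinations of a member and a group, 2 held a library far from the others of its group by Dixon's 95% limits, where chance gives about 1 in 20 groups. Klk1 in 1x20Gy day 13 replicate 4 stood at 22.8 CPM, above the 7.15 to 13.8 CPM of the other 6 libraries, with a gap of 0.577 of the range. Pacsin1 in 1x0Gy day 13 replicate 3 stood at 4.81 CPM, below the 10.8 to 12 CPM of the other 3 libraries, with a gap of 0.837 of the range. Without that mock library the log2 fold change of Pacsin1 was 0.67 (edgeR adjusted p = 0.12).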

How the results depend on the processing

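At day 13, Siglech, Ccr9 and Spib were called in all 20 alternatives, with log2 fold changes of 1.21 to 1.7, 0.94 to 1.43 and 1.13 to 1.65. Runx2 was lost in 1 and Pacsin1 in 10 of 20. Leaving out 1 library gave 3 to 8 members called at day 13, 0 to 1 after 3x4Gy and 0 to 1 after 1x20Gy at day 5. After 3x4Gy, 1 member was called with no filter or DESeq2 (Runx2), 1 with the share of reads outside genes as a covariate (Tcf4, -0.84) and 2 with limma voom. After 1x20Gy at day 5, 1 was called with library size alone (Tcf4), 1 with no filter (Ly6d), 1 with the covariate (Tcf4, -1.1) and 2 with only the groups compared. The sign turned in few uncalled estimates: Pacsin1 after 3x4Gy to 0.03 with the covariate, Siglech after 1x20Gy at day 5 to -0.04 with limma voom, and Klk1 to -0.41 in the difference of regimens with limma voom. Leaving out 1 library at day 5 gave -0.34 to 0.83 for Siglech, -0.07 to 0.89 for Ccr9 and -0.18 to 1.18 for Klk1 after 1x20Gy. At day 13 the r of Ly6d with Spib was -0.01 and of Cox6a2 with Pacsin1 -0.04, positive over all libraries. Of the 45 pairs of members, 26 passed over all libraries but not at day 13, and 12 not without the 3x4Gy libraries; these settings were chosen after seeing the data. The cause of these changes was not tested.

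Of all genes, 1477 were called after 3x4Gy, against 667 with the covariate and 702 with only the groups compared. After 1x20Gy at day 5 there were 1028, and 582 or 556 without 1x0Gy replicate 3 or 4. At day 13 there were 891, and 1533 with library size alone, 588 and 306 without 1x0Gy replicate 2 or 3. The response at day 13 minus day 5 gave 51, and 85 with no filter, 228 with DESeq2 and 3 with limma voom. With no filter 1 gene was called between regimens and 1 between mocks. Called higher were 625, 441 and 467 genes, but 325 of 1409, 210 of 1157 and 222 of 1533 with library size alone, which moved the median of all genes to -0.1, -0.11 and -0.23, and 450 of 1560 and 317 of 1062 at day 5 with upper quartile scaling. With the title number as a replicate block, 0, 0 and 6 members were called, with Cox6a2 (0.91) and Tlr7 (-0.72) gained and Pacsin1 (0.77) lost. Same-numbered libraries had r of -0.26 to 0.4, and 5, 3 and 5 of 8 were most like their own number. Not every pair's r was over 0.1, and the main fits did not take the numbers to pair the libraries. These values do not settle whether the numbers mark a pairing, and the labels give none. Klk1 and Siglech in the low day 5 libraries rest on as few as 1 and 3 counts.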
